A study of Homo sapiens with 12 samples.

Results

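GATA4, GATA5, GATA6, HNF4A, PDX1 and CDX2 are 6 transcription factor genes of endoderm and heart, lineages foreign to a neuroblastoma cell. They were taken by name out of 19962 protein-coding genes on chromosomes 1 to 22 and X, and each was measured by the H3K27me3 peaks that overlap the gene with its flanks of 5 kb. The peaks came from ChIP-seq of SH-SY5Y, a human neuroblastoma line. The groups were Tau expressing cells (WT) and the Tau-KO lines 231K and 232P of the same cell line, with 2 replicates each and no treatment named for any group. Within 1 Tau-KO line, what is particular to the line and what comes from the loss of Tau cannot be told apart, and the p-values measure only the spread between these samples. The 6 ChIP samples had 1 peak list each, and their 6 inputs were not analysed here. All peaks of the lists labelled 232P carry names that start with 231P, a name that the study uses for another Tau-KO line, so that the identity of this line rests on the sample labels alone.

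H3K27me3 is the trimethyl mark that the polycomb repressive complex PRC2 places on lysine 27 of histone H3, and it lies in broad stretches over developmental genes that a cell keeps silent. GATA4, GATA5 and GATA6 are zinc finger factors of heart and endoderm. HNF4A is a nuclear receptor of liver, gut and pancreas, PDX1 a homeodomain factor that forms the pancreas, and CDX2 a homeodomain factor of the intestine. PDX1 and CDX2 lie with GSX1, a factor of the developing brain, in the ParaHox cluster, an old sister of the HOX clusters. In neuroblastoma of the noradrenergic type, GATA2, GATA3 and HAND2 belong to the factors that hold the identity of the cell.

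GATA6, PDX1 and CDX2 were under peaks over 44.6% to 80.5% of the gene with its flanks in the 6 samples, whereas GATA4, GATA5 and HNF4A were nearly free of peaks. The first bases of a gene are shown here because the start of GATA6 lay in a stretch free of peaks inside a covered gene, the CDX2 start lay at the edge of a peak, and the starts of HNF4A had no peak near them. The 250 bases before these starts are from RefSeq (GRCh38.p14), written 5′ to 3′ on the strand of the gene, with each CG dinucleotide in capitals.
GATA6, chr18:22169339-22169588, plus strand: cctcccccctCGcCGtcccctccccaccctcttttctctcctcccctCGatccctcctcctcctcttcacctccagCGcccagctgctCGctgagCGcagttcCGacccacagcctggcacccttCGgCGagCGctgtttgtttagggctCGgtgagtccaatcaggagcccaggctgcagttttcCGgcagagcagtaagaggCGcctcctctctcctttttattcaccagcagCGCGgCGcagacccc
CDX2, chr13:27969316-27969565, minus strand: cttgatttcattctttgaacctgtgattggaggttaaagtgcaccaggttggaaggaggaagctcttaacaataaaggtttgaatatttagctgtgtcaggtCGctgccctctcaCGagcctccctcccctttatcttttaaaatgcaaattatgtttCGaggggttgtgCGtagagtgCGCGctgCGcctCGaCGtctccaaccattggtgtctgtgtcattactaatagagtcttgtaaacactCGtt
HNF4A, first start, chr20:44355449-44355698, plus strand: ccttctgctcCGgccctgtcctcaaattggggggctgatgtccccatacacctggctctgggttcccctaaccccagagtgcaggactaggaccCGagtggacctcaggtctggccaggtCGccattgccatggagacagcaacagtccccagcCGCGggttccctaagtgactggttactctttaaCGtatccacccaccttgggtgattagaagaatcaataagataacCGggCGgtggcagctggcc
HNF4A, inner start, chr20:44400989-44401238, plus strand: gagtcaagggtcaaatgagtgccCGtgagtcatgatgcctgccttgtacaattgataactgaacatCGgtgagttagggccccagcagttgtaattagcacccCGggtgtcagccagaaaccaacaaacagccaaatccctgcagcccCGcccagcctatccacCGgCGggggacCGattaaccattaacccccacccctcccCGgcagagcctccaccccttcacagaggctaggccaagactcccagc
These held 16 CG for GATA6, 10 for CDX2 and 8 for each start of HNF4A. Of the 35116 promoter stretches of this table and length, 93.9% held CG at least 1 time, with a median of 11 and the letters read on both strands alike. GATA6 was thus above the median and CDX2 and HNF4A below it. Replicates 1 and 2 of WT had 250 and 209 of the CDX2 bases under a peak. In 231K these were 219 and 177 bases and in 232P 186 and 0. None of the bases of the GATA6 and HNF4A stretches was under a peak in any sample.

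The lists differed in size. WT replicates 1 and 2 had 285826 and 222191 peaks, 231K had 271413 and 212347, and 232P had 147118 and 199677. They covered 213.6 and 282.6 Mb of the genome in WT, 196.6 and 290.2 Mb in 231K, and 70.3 and 211.7 Mb in 232P. The depth as the lists show it, relative to WT replicate 1, was 66.6% in WT replicate 2, 94.7% and 68.7% in 231K, and 68.1% and 56.9% in 232P. The list of 232P replicate 1 covered the smallest part of the genome. It correlated with the other lists across genes at 0.777 to 0.873, and the other lists with each other at 0.932 to 0.981 (Pearson, covered share, a description across genes). In all replicates numbered 1 the smallest peak was 175 to 179 bp wide, and in all numbered 2 it was 240 to 262 bp. The replicate number thus went with a property of the libraries or of the peak calling, and values within a replicate number are given beside the pooled ones.

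The covered share, the part of the window of gene and flanks that lies under peaks, was taken as the main measure. GATA6 (ENSG00000141448.11, hg38 chr18:22169589-22202528, plus strand, 7 exons) had a covered share of 78.1% and 80.5% in WT, 72.0% and 80.5% in 231K, and 44.6% and 59.6% in 232P. The 231K samples overlapped those of WT, and both 232P samples lay below all the others. Of the 6344 genes with a peak in at least 1 sample, 42.6% had both 232P samples below both WT samples and 33.4% below both 231K samples, so that this order was common. CDX2 (ENSG00000165556.10, chr13:27960918-27969315, minus strand, 3 exons) had 64.9% and 72.6% in WT, 63.7% and 65.3% in 231K, and 54.7% and 45.9% in 232P. Here too the 232P samples were the lowest and the 231K samples reached into the range of WT. PDX1 (ENSG00000139515.6, chr13:27920000-27926313, plus strand, 2 exons) had 69.0% and 60.1% in WT, 58.9% and 58.3% in 231K, and 66.1% and 46.3% in 232P. Both 231K samples were just below WT at PDX1, an order that 11% of the genes had, while the 232P samples lay on either side of the lower WT value.

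By mean ± SD (n = 2), the covered share of GATA6 was 79.3% ± 1.67 in WT, 76.2% ± 5.94 in 231K and 52.1% ± 10.6 in 232P. For CDX2 it was 68.7% ± 5.45, 64.5% ± 1.17 and 50.3% ± 6.24, and for PDX1 64.5% ± 6.31, 58.6% ± 0.403 and 56.2% ± 13.99. In WT, the order was GATA6, CDX2, PDX1, and CDX2 and PDX1 did not differ beyond their spread. These shares placed the genes high among all genes in each list. GATA6 stood between percentiles 96.8 and 98.7 of all genes, PDX1 between 93.2 and 99.7, and CDX2 between 94.2 and 99.2. Of all genes, 19.7% had a peak in all 6 samples, 68.2% had none in any, and 10.8% had a mean covered share of at least 25%.

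**Figure D1:**
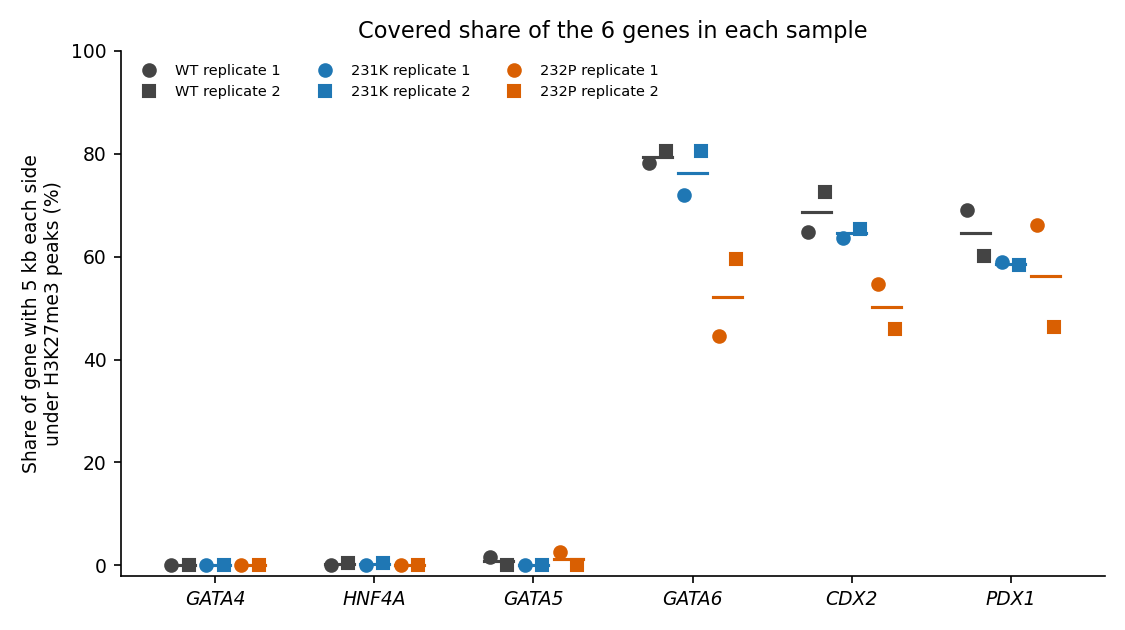
Covered share (%, y axis) of the 6 genes in each of the 6 samples, with WT in grey, 231K in blue and 232P in orange, circles for replicate 1, squares for replicate 2 and short lines for the mean of each genotype. GATA6, CDX2 and PDX1 lie between 44.6% and 80.5% in every sample, and GATA4, HNF4A and GATA5 at or below 2.61%.

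GATA4 (ENSG00000136574.19, chr8:11676959-11760002, plus strand, 7 exons) had no peak in any of the 6 samples. The nearest peak lay at least 450766 bp to one side of the gene and at least 219787 bp to the other, so that the locus sat in a large stretch without listed peaks. GATA5 (ENSG00000130700.7, chr20:62463497-62475995, minus strand, 7 exons) had 1 peak upstream in replicate 1 of WT (chr20:62477326-62477693) and 1 in replicate 1 of 232P (chr20:62477356-62477942), and none in the other samples. Their nearer edges were 1330 and 1360 bp before the start, and they covered 1.64% and 2.61% of the window. Their fold enrichment, height at the summit over local background with 1 added to each, was 3.57 in each, which is percentile 60.7 of the peaks of its list in WT and 39.6 in 232P. Their -log10 q-values were 2.59 and 2.20. Both peaks came from replicates numbered 1, and no genotype had the peak in both replicates.

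HNF4A (ENSG00000101076.20, chr20:44355699-44432845, plus strand, 10 exons) had 1 peak in intron 8 in replicate 2 of WT (chr20:44424689-44425077) and of 231K (chr20:44424685-44425149). These covered 0.45% and 0.53% of the window, with a fold enrichment of 2.94 and 2.29, at percentiles 24.0 and 1.5 of their lists. The other samples had no peak there, and no sample had one at any of the 10 transcript starts of the gene. All 8 transcript starts of GATA4 and the 1 start of GATA5 were also without a peak within 1 kb. A gene without a listed peak can still carry the mark below the detection limit of the list, and GATA5 and HNF4A had values too near 0 for a comparison of genotypes.

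The marked and unmarked genes did not part by gene family or by tissue: GATA6 was covered and GATA4 and GATA5 were not. The number of CG around the start did not part them either. In the 2 kb around the start of the canonical transcript, GATA5 had 220 CG (percentile 98.2 of all genes), GATA6 170 (90.1), CDX2 130 (72.4), GATA4 125 (69.5), PDX1 121 (66.9) and HNF4A 61 (28.7). The median of all genes was 96, that of genes with a peak in all 6 samples 61, and that of genes with no peak 102. GATA5, the gene with the most CG, thus had a single weak peak in 2 samples, and PDX1 and GATA4 with nearly equal numbers stood on opposite sides.

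At the 3 covered genes, peaks lay near the annotated start but mostly not on it. A peak lay within 1 kb of the start in all 6 samples at GATA6, PDX1 and CDX2, as at 8.4% of all genes. The start base itself was outside of peaks in all 6 samples at GATA6 and PDX1 and in 5 of 6 at CDX2, with WT replicate 1 as the exception. At GATA6, the last peak before the start ended 652 and 665 bp upstream in WT, 669 and 645 bp in 231K, and 714 and 683 bp in 232P. The edge thus lay between 645 and 714 bp in all samples, while the covered share of the gene ranged from 44.6% to 80.5%. At PDX1 the edge was 233 and 126 bp upstream in WT, 368 and 129 bp in 231K, and 143 and 206 bp in 232P. At CDX2 it was 41 bp in WT replicate 2, 31 and 73 bp in 231K, and 64 and 264 bp in 232P. The upstream edges of the 3 genes thus lay in the order CDX2, PDX1, GATA6 from the start outward in WT replicate 2, both 231K samples and 232P replicate 1, with PDX1 before CDX2 in 232P replicate 2 and no edge at CDX2 in WT replicate 1.

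Downstream of the start, the edges at GATA6 went with the replicate number. There, the next peak began 268, 288 and 263 bp after the start in the replicates numbered 1 of WT, 231K and 232P, and 3100, 3006 and 3144 bp after it in those numbered 2. The small peaks next to the start of GATA6 were listed in replicate 1 only, in each genotype. At PDX1, the next peak began 566 and 2641 bp after the start in WT, 2415 and 2477 bp in 231K, and 551 and 2864 bp in 232P, so that 231K replicate 1 was like the replicates numbered 2. The stretch around the start that was free of peaks in all 6 samples ran from 645 bp before to 262 bp after the start of GATA6 (908 bp) and from 126 bp before to 550 bp after the start of PDX1 (677 bp). Such a gap is common: of the 1676 genes with a peak within 1 kb of the start in all 6 samples, 32.8% had the start base outside of peaks in all 6, and 14.9% had it under a peak in all 6.

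**Figure D2:**
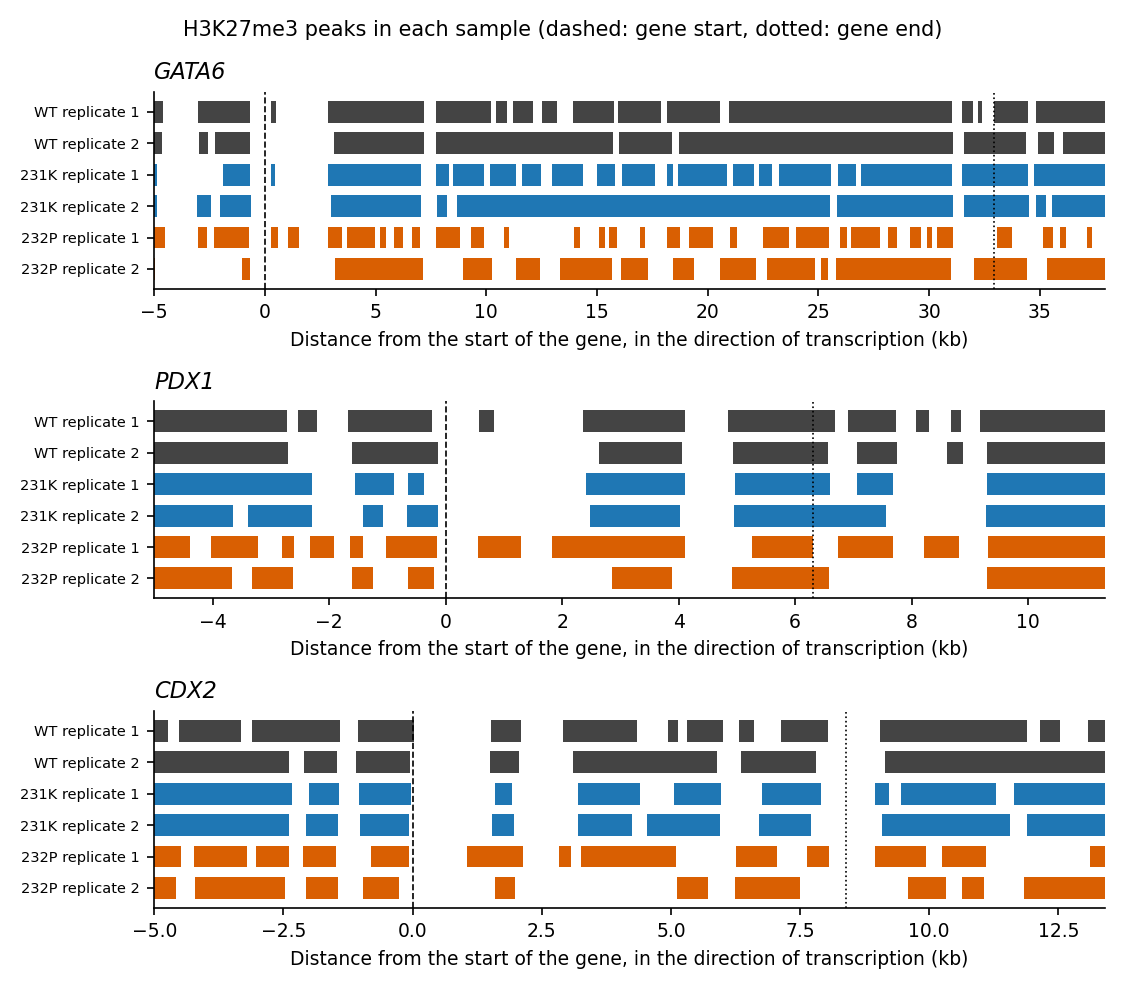
Peaks of each sample (bars) along GATA6, PDX1 and CDX2, by distance from the gene start in kb in the direction of transcription, with WT in grey, 231K in blue and 232P in orange. The start (dashed line) lies outside of the peaks in all samples at GATA6 and PDX1, and the peaks of 232P replicate 1 are short and numerous over GATA6.

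Within GATA6 the cover lay mainly in the introns, with 86.2% and 90.5% of the intron bases under peaks in WT, 78.8% and 89.6% in 231K, and 51.2% and 68.1% in 232P. Of the exon bases, 24.3% and 46.2% were covered in WT, 49.2% and 47.3% in 231K, and 0.77% and 31.8% in 232P. The exons were less covered than the introns in every sample. At CDX2, the 5 kb upstream were the most covered part in all 6 samples, with 84.6% and 86.0% in WT, 85.1% and 83.3% in 231K, and 71.4% and 69.6% in 232P. At PDX1, the 5 kb upstream had 80.7% and 75.4% in WT, 72.9% and 66.6% in 231K, and 62.7% and 56.7% in 232P. The intron of PDX1 had 81.7% in 232P replicate 1, above the 54.3% and 38.2% of WT, and 27.8% in 232P replicate 2.

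Within a replicate number, the cover of GATA6 was made of fewer and longer peaks in WT and 231K than in 232P. Its window held 16 and 10 peaks in WT, 20 and 10 in 231K, and 32 and 14 in 232P. Their median width was 1887 and 2744 bp in WT, 1306 and 2490 bp in 231K, and 435 and 1483 bp in 232P. In each genotype the replicate numbered 1 had more and shorter peaks. PDX1 had 7 to 12 peaks and CDX2 7 to 13, with the highest number in a replicate 1 for both genes.

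By single bases, 26.0% of the GATA6 window, 33.8% of the PDX1 window and 22.8% of the CDX2 window were under a peak in all 6 samples. Under a peak in at least 1 sample were 87.9%, 82.8% and 82.9%. Of the GATA6 bases under peaks in both WT samples, 3.26% were in no peak of 231K and 11.6% in no peak of 232P. For CDX2 these were 5.44% and 14.9%, and for PDX1 5.63% and 3.08%. Bases under peaks in both WT samples and in none of the 4 Tau-KO samples amounted to 300 bp at GATA6, 188 bp at CDX2 and 82 bp at PDX1. The reverse, bases in each of the 4 Tau-KO lists but in neither WT list, was found for 83 bp at PDX1 and for none at GATA6 and CDX2. These values depend on the length of each list, and that of 232P replicate 1 covered only 70.3 Mb of the genome. A short Tau-KO list raises the count of WT bases that are lost and lowers the reverse. The same values were not taken over all genes, so they do not show a loss particular to these genes.

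The design asks whether the mark differs between Tau-KO and Tau expressing cells at these genes. Of GATA6, CDX2 and PDX1, none passed in any of the 4 comparisons (limma, moderated test on the arcsine square root of the covered share, Benjamini-Hochberg over the 6344 genes with a peak in at least 1 sample, two-sided). For 231K minus WT, the difference was −3.04 points of covered share at GATA6, −4.23 at CDX2 and −5.90 at PDX1, with an adjusted p = 1 for each by limma. On the arcsine scale these were −0.04 ± 0.13 (SE), −0.05 ± 0.13 and −0.06 ± 0.13. The median difference of all genes tested was −0.048 points, and no gene passed (0% of 6344, with 141 genes or 2.22% under an unadjusted p of 0.05). Adding the replicate number as a further term let 2 genes pass, both lower in 231K (0.0315%), and GATA6, CDX2 and PDX1 were not among them.

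For 232P minus WT, the difference was −27.2 points at GATA6, −18.4 at CDX2 and −8.34 at PDX1. On the arcsine scale these were −0.29 ± 0.13 (SE), −0.19 ± 0.13 and −0.08 ± 0.13, with limma adjusted p = 0.485, 0.485 and 0.692. The median of all genes tested was −5.42 points, and again no gene passed (0%, with 579 genes or 9.13% under an unadjusted p of 0.05). The genes tested include those with a covered share near 0, which cannot fall by as many points as GATA6 or CDX2. FLT3, URAD, POLR1D and GSX1, covered genes near PDX1 and CDX2, differed by −27.2, −18.3, −12.9 and −12.5 points. With the replicate number as a further term, 98 genes passed, all of them lower in 232P (1.54%), and GATA6, CDX2 and PDX1 had limma adjusted p = 0.0775, 0.158 and 0.506. After quantile normalization, which sets the distribution of covered shares equal in all samples, the difference was −4.10 points at GATA6, 2.94 at CDX2 and 10.3 at PDX1, so that the sign turned at CDX2 and PDX1.

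Both Tau-KO lines together differed from WT by −15.1 points at GATA6, −11.3 at CDX2 and −7.12 at PDX1 (limma adjusted p = 0.831 for each), with a median of −2.71 points over all genes. Here 2 genes passed, both lower in Tau-KO cells (0.0315%, with 246 genes or 3.88% under an unadjusted p of 0.05). They were ACTL7B, an actin-like gene of the testis, and OR5D14, an olfactory receptor gene, with 13.1% to 13.6% in WT and 0% in all 4 Tau-KO samples. With any 1 of the 6 samples left out, 0 genes passed, and with the replicate number as a further term 17 did. All 4 Tau-KO samples were below both WT samples at 8.65% of the genes, and GATA6, CDX2 and PDX1 each missed this order by 1 sample. The lines themselves were compared as well. For 232P minus 231K, the difference was −24.1 points at GATA6, −14.2 at CDX2 and −2.45 at PDX1 (limma adjusted p = 0.522, 0.542 and 0.977), and no gene passed (0%, with 440 genes or 6.94% under an unadjusted p of 0.05).

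Within the replicates numbered 1, the covered share in 232P was 0.571 times that of WT at GATA6, 0.843 at CDX2 and 0.958 at PDX1. The median over the 3939 genes with a peak in all 6 samples was 0.356, and the length covered in the whole genome 0.329. Within the replicates numbered 2, the ratios were 0.741, 0.632 and 0.771, beside 0.736 for the median gene and 0.749 for the genome. The ratio of GATA6 thus lay at percentile 75.9 of these genes in replicate 1 and 51.1 in replicate 2, that of CDX2 at 91.8 and 32.8, and that of PDX1 at 94.8 and 56.9. In 231K, the ratios of the 3 genes were 0.922, 0.981 and 0.854 in replicate 1, and 1.0, 0.9 and 0.971 in replicate 2, in the same order of genes. The median gene was at 0.905 and 1.04. The cover was lower in 232P than in WT in both replicate numbers at all 3 genes. As a ratio to WT, it was reduced more than at the median gene only at CDX2 in replicate 2. In points of covered share, the difference within replicate 1 was −33.5 at GATA6, −10.2 at CDX2 and −2.91 at PDX1, beside −17.2 for the median gene. Within replicate 2 it was −20.8, −26.7 and −13.8, beside −9.13, so that in points GATA6 in both replicates, and CDX2 and PDX1 in replicate 2, were further from WT than the median gene. The part of depth and of the calling of peaks in these ratios was not tested.

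**Figure D3:**
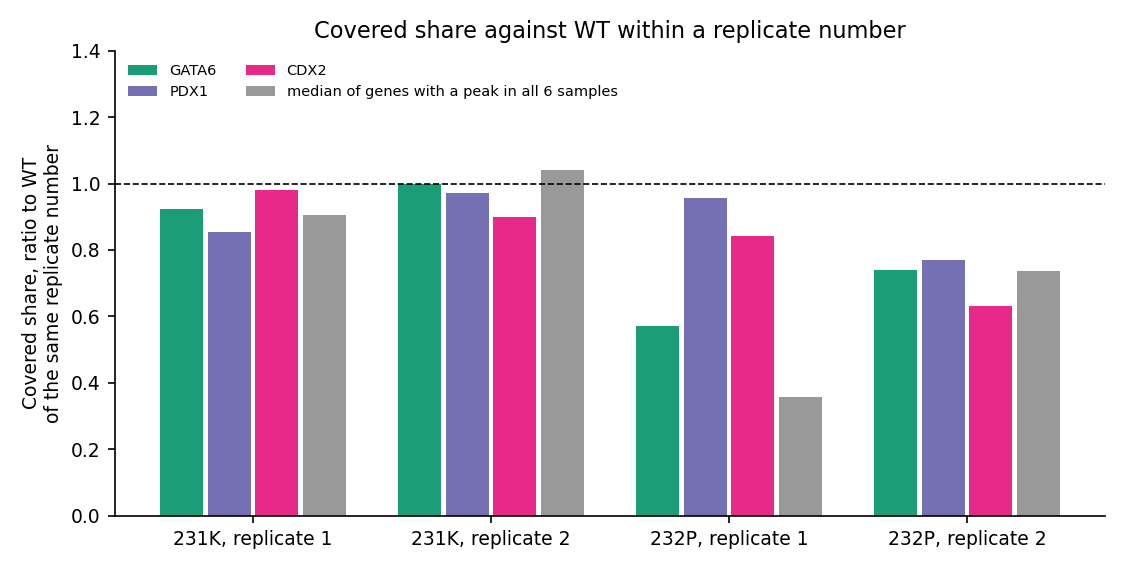
Covered share in each Tau-KO sample as a ratio to the WT sample of the same replicate number (y axis, 1 = equal, dashed line) for GATA6, PDX1, CDX2 and the median of the 3939 genes with a peak in all 6 samples (grey). In 232P replicate 1 the median gene is at 0.356 and the 3 genes are between 0.571 and 0.958, and in 232P replicate 2 all lie between 0.632 and 0.771.

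The strongest peak gives a measure of height beside that of length. At GATA6, the highest fold enrichment of a peak in the window was 9.53 and 7.99 in WT, 9.84 and 8.75 in 231K, and 6.96 and 7.95 in 232P. The 232P samples were lowest, and WT and 231K overlapped. At CDX2 it was 8.70 and 10.0 in WT, 7.24 and 9.17 in 231K, and 8.45 and 7.06 in 232P. Both 232P samples were again below WT, as at 35.3% of the 3939 genes with a peak in all 6 samples. At PDX1 it was 7.94 and 7.15 in WT, 9.84 and 8.34 in 231K, and 7.95 and 7.06 in 232P, so that the 231K samples were the highest, as against WT at 18.4% of these genes, and 232P overlapped WT. All these peaks stood between percentiles 97.7 and 99.9 of the peaks of their lists. They rest on 13 to 23 reads at the summit, recovered from the listed values, so the counting error of each is wide.

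In log2 units, the highest fold enrichment differed between 231K and WT by 0.09 ± 0.20 (SE) at GATA6, −0.20 ± 0.21 at CDX2 and 0.27 ± 0.20 at PDX1. Between 232P and WT it differed by −0.23 ± 0.20, −0.27 ± 0.21 and −0.01 ± 0.20. None passed the test (limma adjusted p = 0.999 for each in 231K, and 0.828, 0.828 and 0.995 in 232P), nor did any of the 3939 genes tested in the 4 comparisons (0%). Under an unadjusted p of 0.05 were 102 genes (2.59%) for 231K, 233 (5.92%) for 232P, 103 (2.61%) for both lines and 399 (10.1%) for 232P minus 231K. The median of all genes was 0.06 for 231K and −0.16 for 232P.

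**Figure D4:**
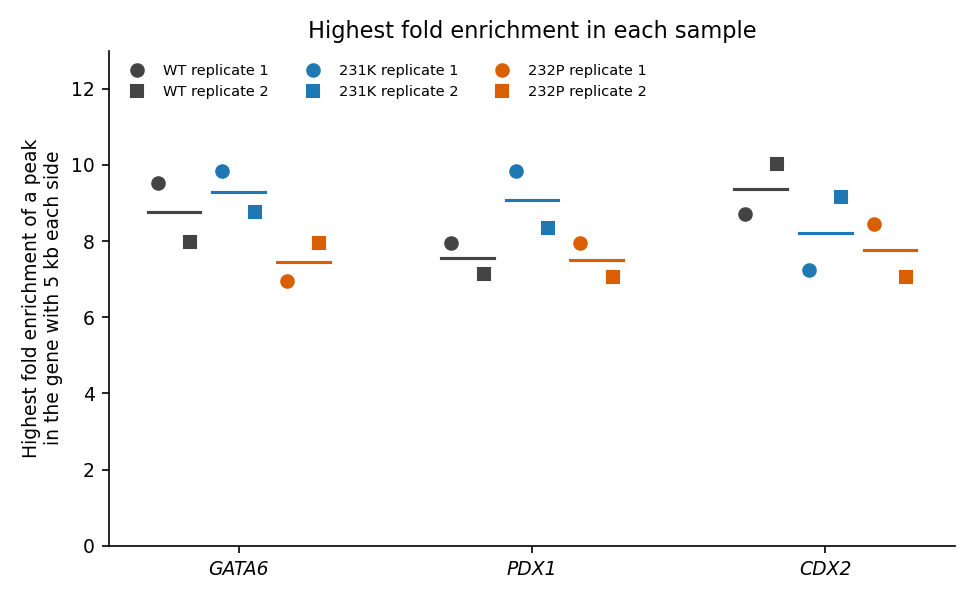
Highest fold enrichment of a peak in the window (y axis, a ratio) at GATA6, PDX1 and CDX2 in each sample, with colours and signs by genotype and replicate number and short lines for the mean of each genotype. All values lie between 6.96 and 10.0, and the genotypes overlap at GATA6 for WT and 231K, at PDX1 for WT and 232P, and at CDX2 for 231K with both WT and 232P.

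The strongest peak was not at the same place in each sample. At GATA6 it was upstream in WT replicate 1 and 232P replicate 1, with the summit at −6097 and −2867 bp from the start the first in a peak that reaches into the window from outside, and in introns 2, 3 or 6 in the other samples, with a tie between introns 2 and 6 in 231K replicate 2. At PDX1 it was in intron 1 in 3 samples and downstream of the gene in the other 3. At CDX2 it was upstream in 3 samples, downstream in WT replicate 2 and in intron 1 in 232P replicate 1, and in 231K replicate 2 a downstream and an upstream peak were tied. The summit in 232P replicate 2 lay at −5421 bp, also outside the window, and the highest fold enrichment with a summit inside it was 6.62 there. Stretches under a peak in all 6 samples were found in intron 2 of GATA6 (chr18:22173311-22174558) and in intron 6 (chr18:22193562-22194418). At PDX1 the longest were 2003 bp behind the gene (chr13:27929311-27931313) and 1052 bp in exon 2 (chr13:27925251-27926302). At CDX2 they were 887 bp (chr13:27972639-27973525) and 552 bp (chr13:27971794-27972345) upstream.

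PDX1 and CDX2 are 34.6 kb apart, and how far their cover ran together depended on the sample and on how peaks are joined. Peaks joined over gaps of up to 3 kb gave a domain of 430.7 kb in WT replicate 2 (chr13:27692515-28123212), which held GSX1, PDX1, CDX2, URAD, FLT3 and a part of POLR1D. In the other WT sample and in 231K, the locus was split in 2 between PDX1 and CDX2, with 228.7, 227.3 and 247.8 kb around GSX1 and PDX1 and 185.4, 185.1 and 184.5 kb around CDX2, URAD and FLT3. In 232P the domain of PDX1 was 39.4 kb in replicate 1 and 8.5 kb in replicate 2. The domain over the largest part of CDX2 was 42.2 and 13.9 kb. Inside the borders of the WT domain of 430.7 kb, 75.3% and 82.8% were under peaks in WT, 69.5% and 86.1% in 231K, and 41.6% and 61.7% in 232P. The 232P samples were the lowest. With gaps of up to 1 kb, the domain over the largest part of PDX1 was 11.0 and 11.7 kb in WT. It was 5.3 and 5.1 kb in 231K, and 9.2 and 1.7 kb in 232P. The domain over the largest part of CDX2 was 2.4 to 6.5 kb. Another domain at the same gene can be longer than these, and no domain of one gene reached the other. The domain borders of 430.7 kb come from a WT sample, which favours WT in this comparison, and no test was made.

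The cover ended sharply on both sides of the ParaHox locus. The 100 kb to its left were covered over 0% to 4.8% and the 100 kb to its right over 0% to 1.2% in the 6 samples. Of the 5 neighbours, FLT3, a receptor of blood progenitors, had a covered share of 86.6% and 91.1% in WT, 79.1% and 91.5% in 231K, and 48.9% and 74.5% in 232P. URAD, an enzyme of urate breakdown, had 72.1% and 69.5% in WT, 70.6% and 76.7% in 231K, and 49.2% and 55.7% in 232P. GSX1 had 72.1% and 62.6% in WT, 64.1% and 68.7% in 231K, and 65.7% and 44.1% in 232P, the pattern of PDX1 with one 232P sample among the values of WT. POLR1D, a subunit of RNA polymerases I and III, was covered over 13.6% to 40.4%, and PAN3, a part of an mRNA deadenylase, had no peak in any sample. Of the 5, PAN3 was not tested for lack of a peak, and the other 4 did not pass in any comparison.

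GATA6 lay in a covered stretch without such borders. With gaps of up to 3 kb, its domain was 150.6 and 56.9 kb long in WT, 106.8 and 56.4 kb in 231K, and 104.3 and 57.4 kb in 232P, and its right border lay between chr18:22228944 and chr18:22231071 in all 6 samples. With gaps of up to 1 kb, the longest domain was 41.4 and 47.7 kb in WT, 48.9 and 56.4 kb in 231K, and 8.6 and 10.4 kb in 232P, and the right borders no longer met. The 100 kb to the left of the 56.9 kb domain of WT replicate 2 were themselves covered over 74.7% and 70.7% in WT, 65.2% and 76.4% in 231K, and 30.9% and 54.0% in 232P. The 100 kb to the right were covered over 65.3% and 74.0%, 64.5% and 71.2%, and 27.8% and 47.0%. The long RNA gene GATA6-AS1 starts beside GATA6 on the other strand and lies in its window, and peaks there cannot be given to one of the 2 genes.

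Among paralogs of the 6 genes, 2 of 6 had a peak in all samples, CDX4 and GATA1, 2 of 6 had none, GATA2 and GATA3, and 2 of 6 had a peak in some samples, CDX1 and HNF4G. CDX4, a caudal factor of the early embryo, had the highest mean of this list with 54.3%. GATA2 and GATA3, which the noradrenergic neuroblastoma cell uses, had 0% in every sample. Of 20 other regulators of endoderm, liver, pancreas and gut, 14 had a peak in all 6 samples, 4 in some and 2 in none. The highest mean was that of ONECUT1, a liver and pancreas factor, with 72.6% and 84.1% in WT, 67.8% and 80.1% in 231K, and 34.4% and 68.5% in 232P. HHEX and PROX1, both factors of early liver, had no peak. Of 10 other heart regulators, 5 had a peak in all samples, 1 in some and 4 in none. HEY2, a repressor of the ventricle downstream of Notch, had the highest mean with 70.0%, and TBX20, HAND1, MEF2C and ISL1 had 0% in each sample.

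Of the 6 genes, 3 (50%) had a peak in all samples, beside 70% of the other endoderm regulators, 50% of the other heart regulators and 19.7% of all genes. The genes that such factors switch on in their tissues were counted next. Of 18 tissue genes, such as those for albumin, insulin and cardiac myosin, 2 had a peak in all samples, 3 in some and 13 in none (72.2%, near the 68.2% of all genes). ALB was the most covered with 46.5% and 79.8% in WT, 56.5% and 74.9% in 231K, and 9.92% and 62.0% in 232P. INS, MYH6, MYH7 and TNNT2 had 0% in all samples. Of the regulators of the noradrenergic neuroblastoma type, GATA2, GATA3, HAND2, PHOX2A, TBX2 and KLF7 had 0% in every sample. Of 8 widely expressed genes, 7 had no peak and 1, HPRT1 on the X chromosome, was covered over 5.57% to 48.0%. Of 5 cofactors of the GATA factors and their partners, NR2F2 had 52.6% and ZFPM2 30.6% on average, and ZFPM1, SMAD4 and EP300 had 0%.

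**Figure D5:**
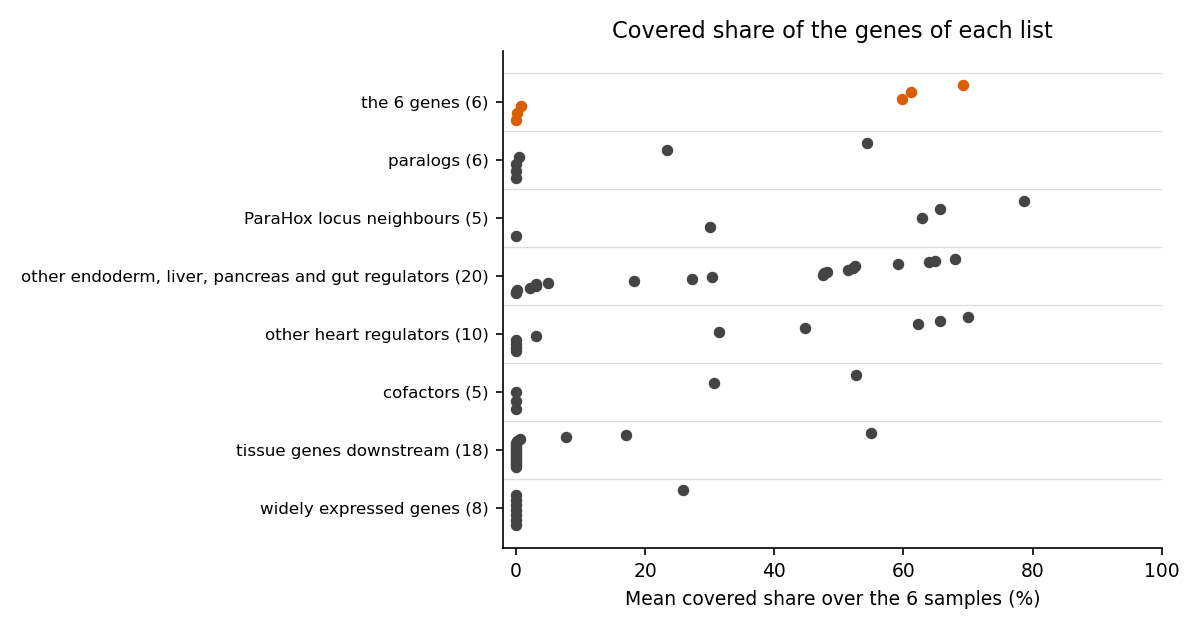
Mean covered share over the 6 samples (%, x axis) of each gene (points) in the 6 genes described (orange) and in 7 lists (grey), with the number of genes in brackets. The covered genes of the endoderm and heart lists reach up to 70.0%, and 13 of the 18 tissue genes are at 0%, a share of 72.2% beside 68.2% of all genes.

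No gene on these lists that was tested passed in any comparison, where those with a peak in at least 1 sample were tested for covered share and those with a peak in all 6 for the highest fold enrichment. The lowest limma adjusted p among them was 0.412 for covered share in 232P minus WT, at GSC, a homeobox gene of the early embryo, with 3.04% and 3.73% in WT and 0% in both 232P samples.

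The genes whose 6 covered shares were most like those of GATA6 were SFTA2, a surfactant associated gene on chromosome 6, at a distance of 5.77 points, and CLEC17A, a lectin gene on chromosome 19, at 6.11 points (Euclidean distance over the 6 samples). For CDX2 they were ACKR3, a chemokine receptor, at 8.88 points and FOXF2, a forkhead factor, at 10.5 points. For PDX1 they were HOXC12, a HOX gene, at 12.2 points and its neighbour GSX1 at 12.5 points. GATA4 shared its 6 values of 0% with 13617 other genes. For GATA5 they were DLL4 at 0.345 and PDRG1 at 0.965 points, and for HNF4A CPVL at 0.081 and VWA3A at 0.085 points, all with covered shares near 0.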

How the data were processed

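Reads were trimmed (trimmomatic) and aligned to hg38 (BWA) by the authors, who ran MACS (version 2) on each sample. The methods name broadPeak. The deposited lists have the 10 columns of narrowPeak and hold more peaks than the methods count, so they are not that peak set. The deposited fold enrichment divides summit height by local background, each with 1 added (a ratio), and the deposited −log10 p-value and −log10 q-value are those of the summit. The deposited score restates the q-value. The deposited last column gives the summit offset. Nothing in the lists is normalized between samples. The group was taken from the labels, also for the 232P lists with their 231P peak names.

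Genes and windows came from GENCODE release 44. Summit height, background and relative depth were recovered by the Poisson distribution for 100% of the peaks (within 0.001 of the −log10 p-value), and the number of reads is unknown. Covered share and log2 of the highest fold enrichment were fitted with limma 3.58.1 in R 4.3.3 over all 6 samples, on simulated data first. Alternatives were other windows, q-value thresholds, equal numbers of peaks, merging, domains joined over 1 kb, quantile normalization, no transformation, the replicate block and leaving out each sample. The named genes are the 6, and of each list the highest and lowest by mean covered share. Other list genes given with values were chosen after these were seen. Results for some genes of the noradrenergic list are not reported here. The members and lists were chosen with earlier results of these data known.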

Additional observations from a re-analysis of the deposited data

How the results depend on the processing

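None of the 3 covered genes passed the test under any alternative in any comparison, with the lowest adjusted p at 0.0775 for covered share against WT and 0.0948 for 232P minus 231K. The replicate numbers carry no stated pairing. Deviations of same-numbered samples from their genotype mean correlated across genes (Pearson, arcsine scale, no replicate term). The values were 0.506 for WT and 231K, 0.606 for WT and 232P, and 0.573 for 231K and 232P. With the replicate block, 2, 98 and 17 genes passed for covered share in 231K, in 232P and in both lines against WT. Without the block, 0, 0 and 2 did. For both lines against WT, 0 genes passed under quantile normalization, 2.5 kb around the start, a −log10 q-value of at least 5, an equal number of peaks or merging within 1 kb, 1 with a flank of 10 kb and 4 with the gene body only. Leaving out each sample gave 0 to 0. For the highest fold enrichment, 4 genes passed for 232P minus 231K with the highest −log10 q-value, and leaving out each sample gave 0 to 2 genes there, 0 to 2 for 232P minus WT and 0 to 2 for both lines.

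Signs turned as follows, and the cause was not tested. Under quantile normalization, covered share differed by 10.3 points at PDX1 and 2.94 at CDX2 for 232P minus WT, by 14.8 and 6.33 for 232P minus 231K, and by 2.93 at PDX1 for both lines. At PDX1 for 232P minus WT it was 1.94 with the gene body and 1.25 within 2.5 kb of the start. For 232P minus 231K it was 4.40, 14.2 and, with an equal number of peaks, 0.441 at PDX1, and 1.35 within 2.5 kb at CDX2. The log2 highest fold enrichment was 0.163 at PDX1 for 232P minus WT and 0.166 at CDX2 for 232P minus 231K under quantile normalization, and 0.128, 0.049 and, at GATA6 for both lines, 0.003 when rescaled to equal depth, an alternative added after seeing the data. Leaving out each sample moved covered share from −18.2 to 1.55 points at PDX1 for 232P minus WT, from −12.3 to 7.45 for 232P minus 231K, and from −7.24 to 1.17 at GATA6 for 231K minus WT. The positive values came without 232P replicate 2 and without 231K replicate 1. It moved log2 highest fold enrichment from −0.093 to 0.079 at PDX1 for 232P minus WT, from −0.247 to 0.094 at CDX2 for 232P minus 231K, and at GATA6 from −0.038 to 0.217 for 231K and from −0.198 to 0.057 for both lines. With 50% of the 2 kb around the start covered as the condition, GATA6, PDX1 and CDX2 had a start-site peak in 0, 2 and 1 samples, and GATA5 had one in 2 within 2.5 kb. Keeping genes with no peak was not run, since 13618 of 19962 genes then had no variance. A missing peak marks only what the depth of its list could show.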

Other observations

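Of the list genes, GATA1, CDX4 and HPRT1 are on the X chromosome. GATA1, the blood factor among the GATA genes, had a covered share of 33.0% and 26.2% in WT, 19.8% and 39.4% in 231K, and 10.9% and 11.1% in 232P. CDX4 had 49.8% and 63.7% in WT, 52.0% and 86.2% in 231K, and 14.7% and 59.3% in 232P. HPRT1, an enzyme of purine salvage, had 20.9% and 37.3%, 24.1% and 48.0%, and 5.57% and 19.0%. In all 3 genes, replicate 2 of 231K was the highest sample, and the replicates of 231K lay further apart than those of WT. No test of these differences passed (limma, adjusted over all genes).

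NKX2-5, the homeobox factor of the early heart, had the most negative difference of its list in covered share for 232P minus WT. Its covered share was 57.3% and 68.1% in WT, 32.2% and 58.3% in 231K, and 37.2% and 15.5% in 232P. The difference of −36.4 points stood at percentile 1.07 of all genes and did not pass (limma adjusted p = 0.485). IRX4, a factor of the heart ventricle, had 41.1% and 30.5% in WT, 28.2% and 30.5% in 231K, and 47.0% and 11.3% in 232P, so that the 232P samples were both the highest and the lowest. These genes were named after their values were seen.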
